A study of Mus musculus with 3 samples.

Results

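Imprinted genes are expressed mainly from one parental copy, because marks laid down in the egg or the sperm silence the other copy. Many of them act on growth of the embryo and placenta: in mouse, paternally expressed genes such as Igf2 tend to promote growth and maternally expressed genes such as Phlda2 and Cdkn1c tend to restrain it. They lie in clusters that share control regions, and several clusters hold long noncoding RNAs (H19, Meg3, Airn, Kcnq1ot1). In an implantation site, the conceptus (embryo, yolk sac and trophoblast) lies inside the decidua, the uterine stroma that is transformed in pregnancy, and muscle surrounds the whole.

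A list of 32 mouse imprinted genes was followed among the 32285 genes measured on sections of mouse uterus. Of these, 31 had at least 1 unique molecular identifier (UMI, the tag that marks 1 captured RNA molecule) in the spots kept, and Rtl1 had 0. Each gene was given 1 class: 18 as expressed from the paternal copy, 13 from the maternal copy and 1, Gnas, as tissue dependent. A single class leaves out differences between tissues for the other genes. These classes are background: the counts do not separate the parental copies, so no allele was measured here.

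All libraries came from the uterus at pregnancy day 7.5 of females that had been mated with stud males and were kept until 8 weeks of age. No strain, genotype or treatment difference separates them, so they form 1 group. There were 3 libraries of 10x Genomics Visium, which counts RNA on a grid of small barcoded spots, each able to hold several cells of different types. One library holds replicates 1 and 2 together and its spots carry no label that parts these 2 replicates, and the others hold replicate 3 and replicate 4. Each library counted as 1 replicate.

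Of 3978 spots, 3939 had at least 1000 UMIs and were kept. The median per spot was 8038 UMIs in the library of replicates 1 and 2, 26543 in replicate 3 and 28286 in replicate 4, so the first library is the shallowest. The libraries share 676 to 825 spot barcodes by pairs, since a Visium barcode names a slide position. Clustering without the imprinted genes gave 12 regions. Each was classed by whichever of 5 lists (embryo and yolk sac, trophoblast, muscle, stroma, decidua) stood highest above its own mean over regions. Natural killer cell markers were not among the 5. The class called muscle below held 1033 spots, the class called stroma 1152 and decidua 968. The conceptus was the region whose embryo and yolk sac markers stood more than 1 log2 unit above their mean over regions. It held 68 spots in replicates 1 and 2, 41 in replicate 3 and 79 in replicate 4, 188 in all, and 5.76% of all UMIs.

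The classes mixed tissues. The stroma list summed to 17696, 14902 and 15858 CPM (a gene's UMIs scaled to a fixed total of UMIs in the summed spots) in the muscle class of replicates 1 and 2, 3 and 4, against 6844, 4646 and 6590 CPM in the stroma class. The muscle list summed to 28335, 14404 and 21068 CPM in the muscle class, against 1918, 1561 and 1871 CPM in the stroma class. Natural killer markers summed to 3611, 13433 and 7853 CPM in the stroma class, above its own list in replicates 3 and 4. Within the stroma class, region 3 was led by Trbc1, Vipr1 and Aldh3a1 and had natural killer markers 4.04 log2 units above their mean, and region 9 alone had its own list more than 1 log2 unit up. Region 2 of the stroma class was led by Stmn2, Ear2 and Syt13. At a finer clustering (resolution 1.0), a region led by Stmn2 and Syt13 was classed stroma. There, a region led by Ear2 and Qrfpr was classed decidua, and one led by Aldh3a1 and Trbc1 had no class. The line between stroma and decidua thus depended on the clustering. Within the muscle class, region 5 was led by Retnla, Mfap4 and Aldh1a2. The part of these mixtures in the results was not tested except where region 9 alone is given.

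The trophoblast list stood highest in the conceptus, 3.78 log2 units above its mean over regions, with the embryo list at 2.22 and the yolk sac list at 2.58. The region was led by Pfpl, Plet1, Prl5a1 and Psg29. Y-linked genes, which the dams lack, summed to 40.0, 27.8 and 28.5 CPM in the conceptus of replicates 1 and 2, 3 and 4, against 0.392, 0 and 0.36 CPM in decidua. Decidual RNA was also present in the conceptus spots: the decidua list summed to 56217, 12932 and 17388 CPM there, against 89017, 43504 and 57889 CPM in decidua, and was highest in the shallowest library. Its part in the levels below was not tested. In spots that mix cells, fewer cells of a type and less RNA per cell cannot be told apart.

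Sequences are given for genes on which the results below turn, all from RefSeq on build GRCm38.p6 and read from 5′ to 3′. The first pair are promoter windows, 250 bases before to 50 after the start, of Phlda2 and Cd81, which lie in the same cluster of chromosome 7 and differed in opposite directions in the conceptus. The third is the window of Peg3, whose start faces that of Usp29 with 146 bases between the genes, so that their windows overlap by 263 bases. Capitals mark the GC box (GGGCGG or CCGCCC), the TATA motif (TATAAA or TTTATA) and the CCAAT motif (CCAAT or ATTGG), each searched on both strands.
Phlda2, chr7:143502475-143502774, minus strand: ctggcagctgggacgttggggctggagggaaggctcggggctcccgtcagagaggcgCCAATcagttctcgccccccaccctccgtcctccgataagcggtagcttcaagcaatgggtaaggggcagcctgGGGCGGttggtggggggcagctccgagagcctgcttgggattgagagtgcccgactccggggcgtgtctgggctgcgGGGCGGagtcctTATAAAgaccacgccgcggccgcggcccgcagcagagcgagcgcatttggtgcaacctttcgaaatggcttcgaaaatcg
Cd81, chr7:143052500-143052799, plus strand: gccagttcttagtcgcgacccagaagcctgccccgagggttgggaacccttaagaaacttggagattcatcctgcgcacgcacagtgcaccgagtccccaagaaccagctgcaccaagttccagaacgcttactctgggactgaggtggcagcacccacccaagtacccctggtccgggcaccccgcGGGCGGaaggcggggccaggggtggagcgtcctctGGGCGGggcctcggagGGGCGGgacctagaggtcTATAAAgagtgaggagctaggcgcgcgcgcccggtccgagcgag
Peg3, chr7:6730370-6730669, minus strand: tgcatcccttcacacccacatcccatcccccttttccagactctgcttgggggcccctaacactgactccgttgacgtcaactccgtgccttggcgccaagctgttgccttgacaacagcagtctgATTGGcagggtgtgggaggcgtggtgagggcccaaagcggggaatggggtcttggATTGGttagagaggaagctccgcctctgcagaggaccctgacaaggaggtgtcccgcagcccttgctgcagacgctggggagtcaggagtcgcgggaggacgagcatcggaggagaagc
The Phlda2 window held 26 CpG, 2 GC boxes, 1 TATA and 1 CCAAT motif. The Cd81 window held 23 CpG, 3 GC boxes and 1 TATA motif, and the Peg3 window 13 CpG and 2 CCAAT motifs. Over all 32851 promoter windows of 300 bases in the same table, the median was 7 CpG (quartiles 3 and 20), and 35.7% held a GC box, 13.6% the TATA motif and 37.4% the CCAAT motif. Promoters of 26 of the 32 genes were matched. These matches describe letters and no binding was measured.

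H19 also carries a microRNA, mmu-miR-675, inside exon 1 or exon 2 depending on the annotated transcript, and its 2 mature forms are shown with the seed (bases 2 to 8) in capitals. Both lie on the minus strand, at chr7:142577112-142577133 and chr7:142577078-142577099, and their seeds differ. Mature microRNAs were not counted in these data, so the values below are for the H19 RNA alone.
mmu-miR-675-5p: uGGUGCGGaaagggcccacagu
mmu-miR-675-3p: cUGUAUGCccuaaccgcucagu

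In the conceptus against decidua, the genes of this list were more often higher than lower. The list was chosen with earlier results of these data known. Among 30 other imprinted genes tested, 4 were called higher and 6 lower, without such an excess. H19, Igf2, Phlda2, Cdkn1c, Peg10 and Sfmbt2 rose by 4.83 to 6.71 on the log2 scale, and Cd81 and Grb10 fell. Of 26 members that passed the filter on low counts, 15 were called higher, beside 17.9% of all 6622 genes tested, and 2 were called lower, beside 12.5%. Here and below, the genes tested were the listed genes, markers among them, and a random set kept out of the clustering. A gene was called when edgeR's quasi-likelihood test, with Benjamini-Hochberg adjustment over all genes tested, gave it an adjusted p below 0.05 and its log2 fold change reached 1 or -1. The median log2 fold change was 3.07 over these members and 0.08 over all genes tested. The 15 higher were 9 of 15 tested paternally expressed genes and 6 of 10 maternally expressed genes, and both genes called lower are maternally expressed. The fit used 34 sums, 1 per region and library, with the library as a block, so its p-values measure the spread of region sums within these libraries and count several sums per library. With 1 sum per class and library instead, 18 sums in all, the same 17 members were called in the same direction, and the smallest adjusted p over the members was 2.91e-12. Over all genes that fit called 889 higher and 1068 lower of 6612, with a median of -0.10.

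The same members were compared between the conceptus and the muscle and stroma classes. Against muscle, 11 were called higher, beside 19.4% of all genes, and 5 lower, beside 20.2%. Against stroma, 12 were called higher, beside 15.8%, and 4 lower, beside 16.8%. The members' medians were 0.40 against muscle and 0.59 against stroma, where those of all genes tested were 0.08 and 0.03. The share of members called lower was thus close to the background in both, and the higher calls exceeded it. That the list was chosen with earlier results known applies here too. With 1 sum per class and library, 15 of the 16 calls against muscle were kept, without Rian, and 15 of the 16 against stroma, without Airn. With stroma as region 9 alone, 11 members were called higher and 6 lower. These comparisons share the conceptus sums, so their calls are not independent. The fitted fold change weights every region of a class equally and scales libraries by TMM, so it differs from a ratio of the class CPM.

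**Figure D1:**
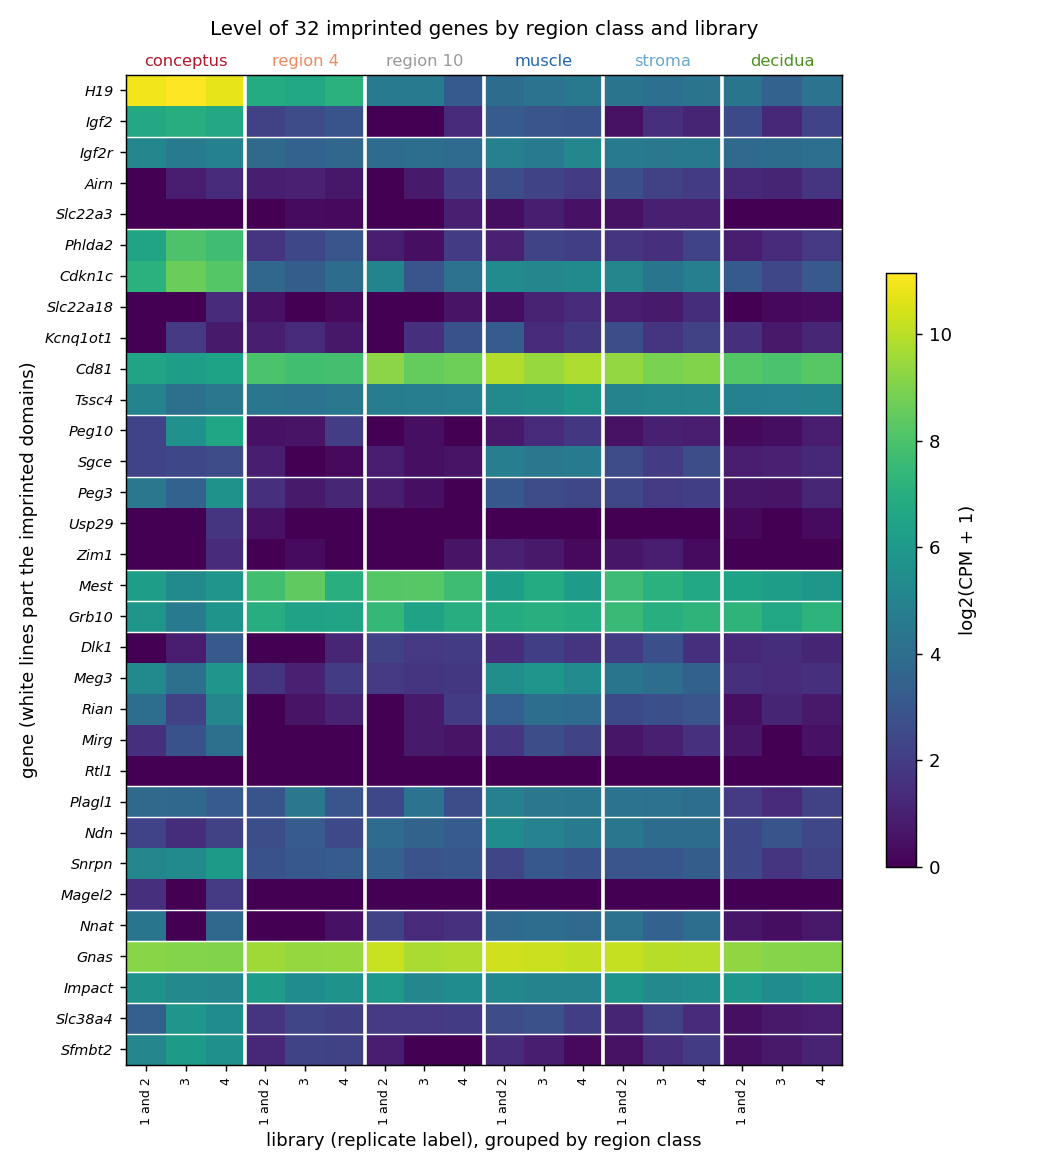
Level of the 32 imprinted genes as log2(CPM + 1), colour scale at right, with 1 row per gene ordered by imprinted cluster and 1 column per library within each region class. H19 is brightest in the 3 conceptus columns at 1724 to 2287 CPM, and Cd81 and Gnas are bright in muscle and stroma.

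Among the genes of the H19 and Igf2 cluster, H19 is a maternally expressed noncoding RNA and Igf2 a paternally expressed growth factor. H19 measured 1950, 2287 and 1724 CPM in the conceptus of replicates 1 and 2, 3 and 4, against 14.5, 17.9 and 21.6 CPM in muscle, 18.8, 16.0 and 18.5 CPM in stroma and 19.2, 10.4 and 18.1 CPM in decidua. Every conceptus value lay above every uterine one. The mean in the conceptus was 1987 ± 284 CPM (SD, n = 3). Its log2 fold change was 6.80 ± 0.23 against muscle (SE, adjusted p = 2.54e-22), 6.94 ± 0.22 against stroma (adjusted p = 3.27e-23) and 6.71 ± 0.25 against decidua (adjusted p = 6.98e-21). The conceptus held 8130 of its 10435 UMIs, 77.9%.

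Igf2 followed the same pattern at 105, 122 and 106 CPM in the conceptus, against 8.1, 6.64 and 5.98 CPM in muscle, 0.404, 1.92 and 1.24 CPM in stroma and 4.7, 1.39 and 3.72 CPM in decidua. Its conceptus range lay wholly above the rest, with log2 fold changes of 4.08 ± 0.22 against muscle (adjusted p = 4.13e-17), 6.48 ± 0.25 against stroma (adjusted p = 7.21e-21) and 4.83 ± 0.24 against decidua (adjusted p = 1.21e-17). H19 lies at chr7:142575529-142578143 and Igf2 at chr7:142650766-142666816, both on the minus strand with 72622 bases between them. Igf2 overlaps Igf2os on the opposite strand, and whether counting used strand is not given in the sources used here. Other members overlap genes on the opposite strand too, among them Airn with Igf2r, Kcnq1ot1 with Kcnq1 and Mest with Copg2. Snrpn overlaps Snurf on the same strand. Igf2r, which clears IGF2 from the cell surface, showed 34.3, 22.6 and 28.5 CPM in the conceptus, against 13.1, 14.2 and 15.9 CPM in decidua. Its log2 fold change against decidua of 0.84 ± 0.20 was below the size needed for a call.

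Per spot, with every spot thinned to 3000 UMIs, H19 had a UMI in 92.7%, 100% and 91.1% of conceptus spots, against means of 6.07% of muscle spots, 5.83% of stroma spots and 3.80% of decidua spots. Free or spread conceptus RNA was not separated from the uterine shares. Prl3d1, a trophoblast giant cell hormone, had 102, 81.4 and 56.2 UMIs per 100 H19 UMIs in the conceptus, against 143, 56.7 and 64.9 in decidua. Igf2 had 5.38, 5.31 and 6.15 UMIs per 100 H19 UMIs in the conceptus, against 24.5, 13.3 and 20.5 in decidua.

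The cluster on distal chromosome 7 that holds Kcnq1ot1 was split in direction. Phlda2, which restrains placental growth, measured 89.6, 265 and 215 CPM in the conceptus, against 1.01, 3.89 and 3.22 CPM in muscle, 2.22, 1.92 and 3.71 CPM in stroma and 0.784, 1.56 and 2.64 CPM in decidua. Groups did not overlap, though replicates 1 and 2 were lowest in the conceptus, and the log2 fold changes were 6.14 ± 0.23, 6.73 ± 0.22 and 6.47 ± 0.24 (adjusted p = 5.93e-21, 1.29e-22 and 7.87e-21) in that order. Cdkn1c, a cyclin-dependent kinase inhibitor, measured 139, 405 and 301 CPM in the conceptus, against 40.5, 35.3 and 38.0 CPM in muscle, 33.3, 19.2 and 27.1 CPM in stroma and 8.03, 4.17 and 7.69 CPM in decidua. It too did not overlap and was lowest in decidua. Its log2 fold changes were 3.03 ± 0.22 against muscle, 3.55 ± 0.21 against stroma and 6.71 ± 0.33 against decidua (adjusted p = 7.59e-14, 7.26e-16 and 1.08e-17).

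Cd81, a tetraspanin of the cell surface, did the opposite. It measured 89.6, 76.4 and 87.9 CPM in the conceptus, against 946, 695 and 873 CPM in muscle, 653, 477 and 529 CPM in stroma and 298, 257 and 302 CPM in decidua. The conceptus was lowest of all 12 regions, and the log2 fold changes were -3.19 ± 0.13 against muscle, -2.56 ± 0.12 against stroma and -1.52 ± 0.12 against decidua (adjusted p = 2.48e-20, 5.58e-18 and 3.09e-12). Tssc4, a splicing-related protein beside Cd81, fell against muscle by 1.08 on the log2 scale (adjusted p = 3.49e-06), at 30.5, 16.5 and 21.2 CPM in the conceptus and 37.8, 46.2 and 59.3 CPM in muscle. That call was lost without replicate 4, at -0.92. Kcnq1ot1, the noncoding RNA of this cluster, had 0, 2.6 and 0.771 CPM in the conceptus, against 8.44, 1.6 and 2.53 CPM in muscle and 1.96, 0.695 and 1.32 CPM in decidua, and was not called in any conceptus comparison. Slc22a18 had 48 UMIs in all and was not tested.

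**Figure D2:**
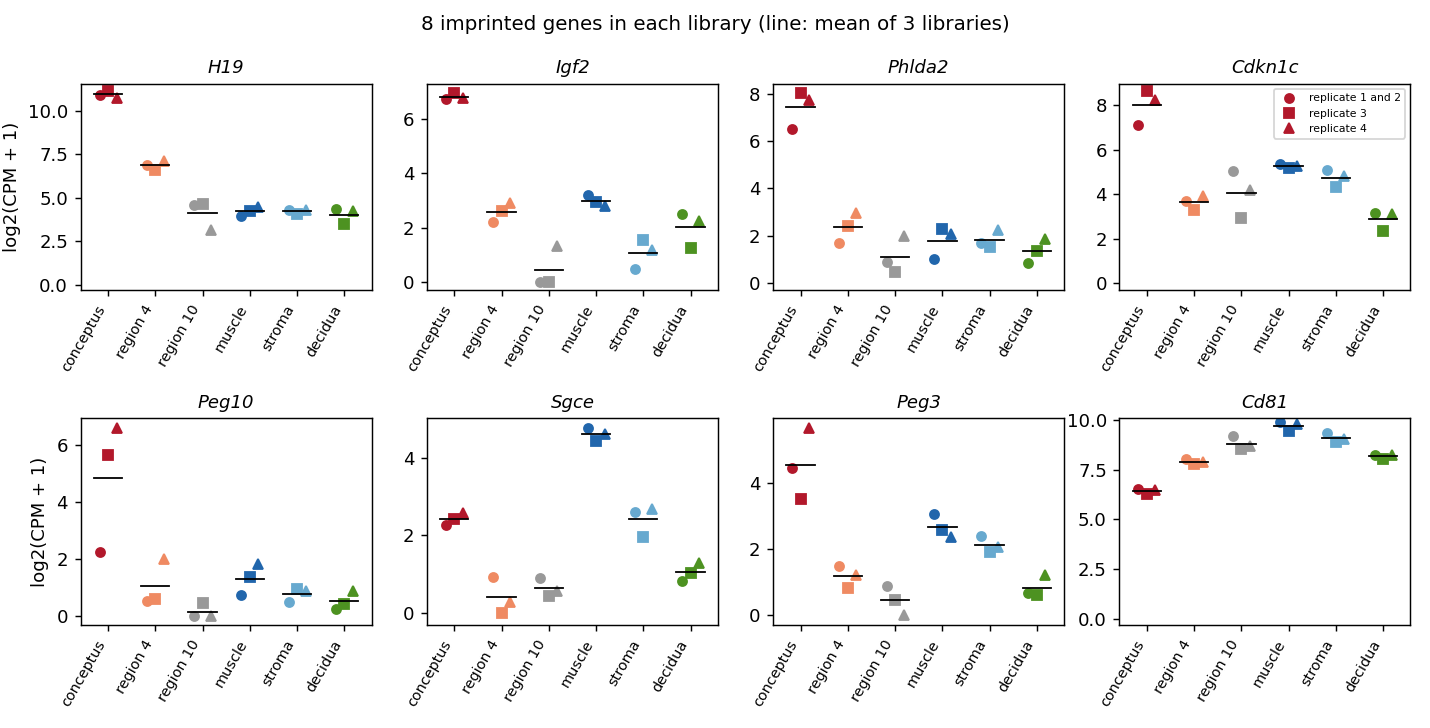
Levels of 8 imprinted genes, each in its own panel, as log2(CPM + 1) on the y axis for 6 region classes on the x axis. Symbols are the 3 libraries and the line is their mean, and the conceptus stands above muscle, stroma and decidua for H19, Igf2, Phlda2, Cdkn1c, Peg10 and Peg3 and below them for Cd81. Peg10 is lowest in the conceptus of replicates 1 and 2, at 3.81 CPM.

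Peg10 and Sgce start back to back on chromosome 6, with 98 bases between them (Sgce at chr6:4674350-4747207, minus strand, and Peg10 at chr6:4747306-4760517, plus strand). Their levels parted. Peg10, a retrotransposon-derived gene required for the mouse placenta, measured 3.81, 49.5 and 96.8 CPM in the conceptus, against 0.675, 1.6 and 2.53 CPM in muscle, 0.404, 0.958 and 0.865 CPM in stroma and 0.196, 0.348 and 0.841 CPM in decidua. Ranges did not overlap, but replicates 1 and 2 rested on 2 UMIs. The log2 fold changes were 5.45 ± 0.36, 6.80 ± 0.37 and 6.41 ± 0.39 (adjusted p = 1.4e-14, 7.45e-17 and 2.1e-15).

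Sgce encodes epsilon-sarcoglycan of the dystrophin-associated complex. It measured 3.81, 4.34 and 5.01 CPM in the conceptus, against 26.3, 20.4 and 23.5 CPM in muscle, 5.05, 2.87 and 5.44 CPM in stroma and 0.784, 1.04 and 1.44 CPM in decidua. Its 3.81 CPM rested on as few UMIs as that of Peg10. Sgce fell against muscle (log2 fold change -2.24 ± 0.32, adjusted p = 2.54e-07), rose against decidua (1.70 ± 0.48, adjusted p = 0.00334) and was not called against stroma (0.13 ± 0.36). The call against decidua was lost without replicate 4.

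Several regulators and a transporter were also higher in the conceptus. Sfmbt2, a polycomb-type protein imprinted in extraembryonic tissue of mouse, measured 32.4, 67.7 and 48.2 CPM there, against 1.69, 0.916 and 0.23 CPM in muscle, 0.404, 1.81 and 2.84 CPM in stroma and 0.392, 0.695 and 1.08 CPM in decidua. Slc38a4, an amino acid transporter, measured 9.53, 56.4 and 42.4 CPM in the conceptus, against 5.07, 5.72 and 3.22 CPM in muscle, 1.21, 3.51 and 1.61 CPM in stroma and 0.392, 0.695 and 0.841 CPM in decidua. Its lowest conceptus value was again in replicates 1 and 2. Peg3, a zinc finger protein, measured 21, 10.4 and 50.5 CPM, against 7.43, 5.04 and 4.14 CPM in muscle, 4.24, 2.77 and 3.21 CPM in stroma and 0.588, 0.521 and 1.32 CPM in decidua. In all of these the conceptus range lay above the uterine ranges. The log2 fold changes against decidua were 5.72 ± 0.43 for Sfmbt2 and 4.68 ± 0.41 for Peg3, with adjusted p = 8.99e-13 and 1.69e-11. Slc38a4 was called higher too (adjusted p = 2.9e-15), but region 12 of decidua had 0 UMIs of it. Its fitted fold therefore depends on the prior count and is not given. The log2 ratio of its mean class CPM was 5.81. Snrpn, a splicing protein, measured 34.3, 39.1 and 66.3 CPM in the conceptus, against 4.05, 7.33 and 5.98 CPM in muscle, 6.67, 6.81 and 8.65 CPM in stroma and 4.31, 2.26 and 3.6 CPM in decidua. It did not overlap and was called higher in all 3 comparisons, with log2 fold changes from 2.94 against stroma to 4.07 against decidua.

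The noncoding RNAs of the Dlk1 and Meg3 cluster on chromosome 12 were high in both the conceptus and muscle. Meg3 measured 38.1, 16.5 and 57.4 CPM in the conceptus, against 44.9, 57.5 and 40.9 CPM in muscle, 19, 15.4 and 10.0 CPM in stroma and 1.96, 1.56 and 1.92 CPM in decidua. Conceptus and muscle ranges overlapped, and only decidua lay wholly below the conceptus. The log2 fold change was 4.48 ± 0.37 against decidua (adjusted p = 4.77e-12), 1.53 ± 0.25 against stroma (adjusted p = 3.47e-06) and 0.04 ± 0.24 against muscle. Rian and Mirg carry small RNAs. Rian measured 15.3, 3.47 and 35.1 CPM in the conceptus, against 9.12, 15.6 and 13.8 CPM in muscle, 4.65, 5.64 and 6.8 CPM in stroma and 0.392, 1.22 and 0.721 CPM in decidua. Mirg measured 1.91, 6.08 and 16.2 CPM in the conceptus, against 2.36, 5.49 and 3.91 CPM in muscle, 0.606, 0.958 and 1.98 CPM in stroma and 0.588, 0 and 0.48 CPM in decidua. Both were called higher against all 3 classes, although the conceptus overlapped muscle and stroma and was highest in replicate 4. The 1.91 CPM of Mirg in the conceptus rested on fewer UMIs than the 3.81 CPM of Peg10. Without replicate 4, none of Meg3 at 0.41 and Rian at 0.58 against stroma, and Mirg at 0.87 and Rian at 0.10 against muscle, was called. Against region 9 alone, Meg3 was at 0.37 and not called.

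**Figure D3:**
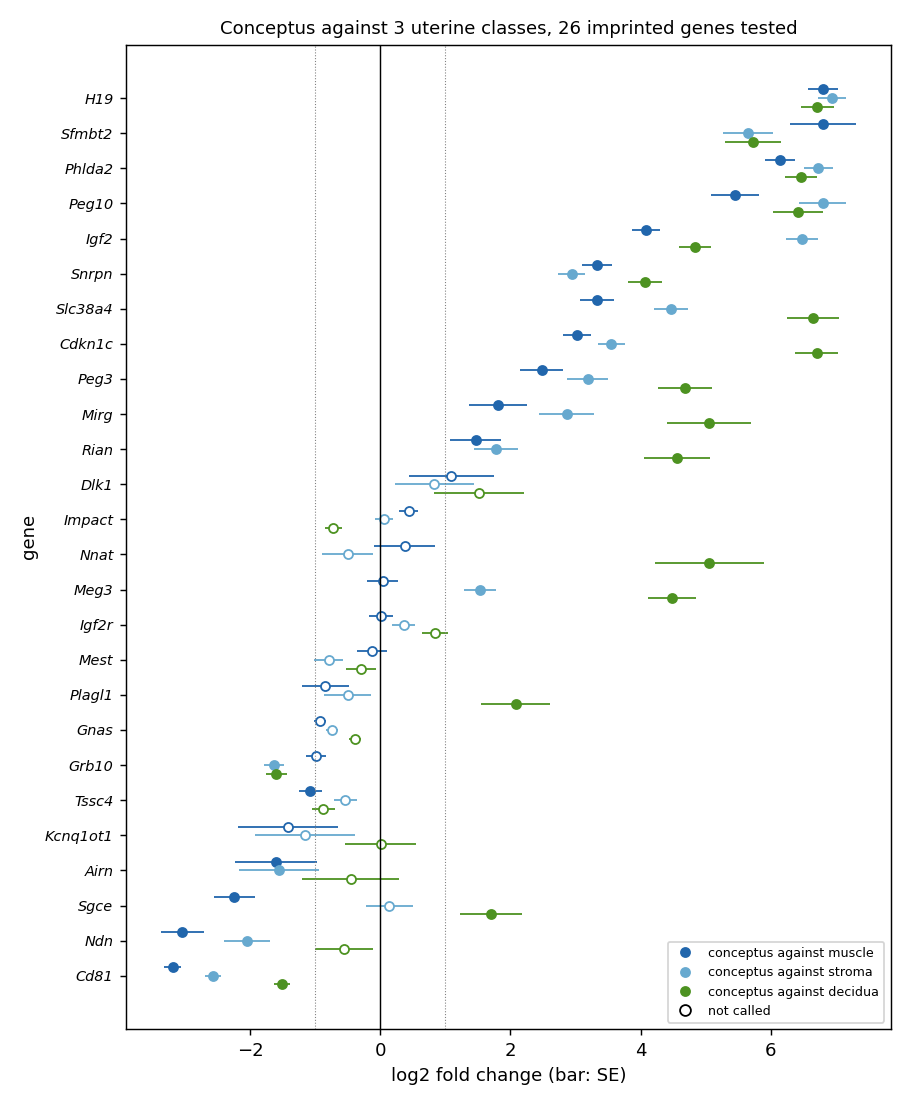
Log2 fold change of the conceptus against muscle, stroma and decidua for the 26 imprinted genes tested, with 1 row per gene. Bars are standard errors, filled points were called and open points were not. H19, Phlda2, Igf2, Peg10 and Sfmbt2 lie far to the right in all 3, and Cd81 lies left of 0 in all 3.

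Members that fell were fewer. Ndn, a growth suppressor of the MAGE family, fell against muscle (log2 fold change -3.04 ± 0.33, adjusted p = 1.42e-09) and against stroma (-2.04 ± 0.36, adjusted p = 1.01e-05), with 3.81, 1.74 and 3.47 CPM in the conceptus, 42.2, 29.8 and 23.7 CPM in muscle, 19.6, 14.6 and 14.5 CPM in stroma and 4.31, 6.43 and 4.2 CPM in decidua. Grb10, an adaptor that dampens insulin and IGF receptor signalling, fell against stroma and decidua, at 59.1, 24.3 and 54.4 CPM in the conceptus, against 186, 129 and 154 CPM in stroma and 154, 98.4 and 149 CPM in decidua. Those log2 fold changes were -1.63 ± 0.15 against stroma and -1.60 ± 0.16 against decidua (adjusted p = 5.61e-11 and 1.86e-10). Against muscle, Grb10 at -0.99 and Gnas, the stimulatory G protein subunit, at -0.92 missed the size needed and were called with DESeq2's size factors. Gnas measured 583, 536 and 525 CPM in the conceptus, against 1292, 1245 and 1134 CPM in muscle, 1172, 991 and 971 CPM in stroma and 635, 564 and 547 CPM in decidua. Airn, the noncoding RNA that silences Igf2r, was called lower against muscle (log2 fold change -1.60 ± 0.63, adjusted p = 0.0276) and stroma (-1.56 ± 0.61, adjusted p = 0.0302), at 0, 0.868 and 1.54 CPM in the conceptus, 5.4, 3.89 and 2.99 CPM in muscle and 5.66, 3.51 and 2.84 CPM in stroma, with 1.37, 1.22 and 2.28 CPM in decidua. Both calls were lost without replicates 1 and 2 and without replicate 3. The conceptus values of Airn rested on very few UMIs, as did the 3.81 and 1.74 CPM of Ndn.

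Against decidua, 9 tested members were not called: Airn, Dlk1, Gnas, Igf2r, Impact, Kcnq1ot1, Mest, Ndn and Tssc4. Plagl1 was called higher there, with a log2 fold change of 2.08 ± 0.53 (adjusted p = 0.00124), but stood at -0.10 when other genes were used for clustering. Usp29, Magel2, Zim1, Slc22a3 and Slc22a18 had 10, 8, 26, 30 and 48 UMIs and were not tested, and all 8 UMIs of Magel2 lay in the conceptus.

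The muscle, stroma and decidua classes, which mix tissues as described above, differed in these genes. Sgce, Meg3, Cdkn1c, Plagl1, Nnat, Ndn and Cd81 rose in muscle and in stroma against decidua. In muscle against decidua, 13 members were called higher, beside 23.1% of all genes tested, and 1 lower, beside 14.3%. In stroma against decidua, 13 were called higher, beside 18.8%, and 1 lower, beside 10.3%. The members' medians were 1.06 and 1.08, against 0.07 and 0.11 over all genes tested. With 1 sum per class and library, 12 of the 14 calls in muscle were kept, without Airn and Kcnq1ot1. In stroma 9 of 14 were kept, without Airn, Cd81, Mirg, Slc38a4 and Snrpn, so that 8 of 26 members were called higher. Both comparisons share the decidua sums. The paternally expressed members called higher in muscle were 8 of 15 tested and the maternally expressed ones 5 of 10.

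Meg3 had the log2 fold changes 4.44 ± 0.31 in muscle (adjusted p = 3.1e-14) and 2.95 ± 0.35 in stroma (adjusted p = 1.05e-08), from the levels given above. Muscle lay above stroma and stroma above decidua without overlap. Sgce had 3.94 ± 0.27 in muscle (adjusted p = 1.3e-14) and 1.56 ± 0.34 in stroma (adjusted p = 0.000219), and its mean was highest in region 7 of the muscle class, at 38.2 CPM. Cdkn1c had 3.68 ± 0.40 in muscle (adjusted p = 8.64e-10) and 3.15 ± 0.41 in stroma (adjusted p = 5.41e-08), and within decidua its mean was 1.57 CPM in region 8 and 0.765 CPM in region 12.

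Plagl1, a zinc finger regulator, measured 27.7, 20.6 and 19.8 CPM in muscle, 18.2, 17.2 and 15.2 CPM in stroma and 2.74, 1.56 and 3.48 CPM in decidua. Decidua lay below both without overlap. Its log2 fold changes were 2.92 ± 0.37 in muscle and 2.58 ± 0.35 in stroma (adjusted p = 1.67e-08 and 1.43e-07). Nnat, a small membrane protein, measured 13.2, 14.9 and 12.9 CPM in muscle, 17.6, 10.4 and 15.6 CPM in stroma and 0.588, 0.348 and 0.721 CPM in decidua, and was called higher in both. In the conceptus, where it was also called higher than decidua, it had 19.1, 0 and 12.7 CPM. Nnat overlaps Blcap on the opposite strand. Region 8 of decidua had 0 UMIs of Nnat, so its fitted fold depends on the prior count and no value is given.

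Cd81 rose by 1.67 ± 0.08 in muscle (adjusted p = 1.36e-18) and by 1.05 ± 0.08 in stroma (adjusted p = 2.84e-13) against decidua, and Ndn by 2.48 ± 0.21 in muscle (adjusted p = 2.38e-12) and 1.49 ± 0.22 in stroma (adjusted p = 5.82e-07). At the finer clustering, Cd81 in stroma was 0.82 and not called. Impact, a regulator of translation, was the member that fell in muscle, by 1.15 ± 0.10 (adjusted p = 2.41e-12), at 35.5, 30.7 and 30.6 CPM in muscle and 56.4, 42.4 and 53.2 CPM in decidua. Igf2 was the member that fell in stroma, with a log2 fold change of -1.64 ± 0.42 (adjusted p = 0.001), and was not called at -0.84 when stroma was region 9 alone. At the finer clustering, Impact in muscle at -0.91 and Igf2 in stroma at -0.79 were not called. H19 was not called in either, at -0.09 and -0.23.

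**Figure D4:**
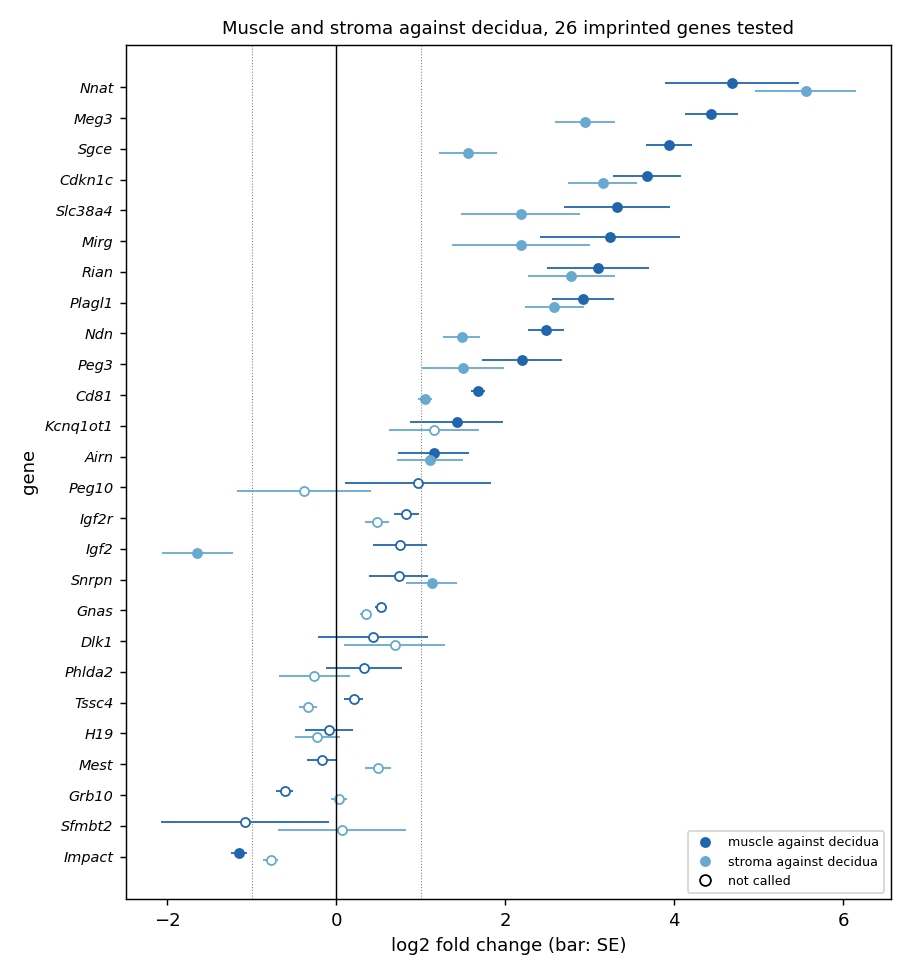
Log2 fold change of muscle and of stroma against decidua for the 26 imprinted genes tested, ordered by the muscle value. Bars are standard errors, filled points were called and open points were not. Most points lie right of 0, with Meg3 at 4.44 in muscle, and Impact at -1.15 in muscle and Igf2 at -1.64 in stroma to the left.

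Mest, a paternally expressed protein of the hydrolase fold, was highest outside the conceptus. It measured 217, 348 and 127 CPM in region 4, against 88.0, 75.4 and 59.7 CPM in decidua. Region 10, led by no class list and with natural killer markers 3.25 log2 units above their mean, had 294, 306 and 208 CPM. By mean, region 10 came first at 269 ± 54, then region 4 at 231 ± 110 and region 3 at 198 ± 95 CPM (SD, n = 3), and these neighbours lay within their spread. Region 4, of 388 spots, was led by Bco1, Mrgprg, Klk9 and Hsd3b6. It fell in the trophoblast class because that list stood 0.99 above its mean, beside 0.97 for endothelium and 0.54 for decidua. Its marker lists were mixed. The trophoblast list summed to 413, 494 and 673 CPM, above the 188, 150 and 189 CPM in decidua. The sums in region 4 lay far below those of the conceptus trophoblast region, given further below. The decidua list summed to 44988, 20471 and 26593 CPM in region 4. Of the 2 tested Y-linked genes, Ddx3y was called higher there than in decidua. Leading genes were taken from the clustering genes, which held no listed marker, so they could not include one.

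Region 4 was compared with decidua alone. Of 26 members, 8 were called higher, beside 13.9% of all genes, and 1, Sgce, lower, beside 6.27%. H19 measured 117, 97.8 and 140 CPM in region 4, against 19.2, 10.4 and 18.1 CPM in decidua, without overlap and with a log2 fold change of 2.80 ± 0.26 (adjusted p = 8.2e-11). Mest had 1.79 ± 0.18 (adjusted p = 9.3e-10). With 1 sum per class and library, Cdkn1c was no longer called. H19 in region 4 lay below, and Mest above, its level in the conceptus, where Mest had 74.3, 38.2 and 56.3 CPM. The call of Sgce was lost without replicate 3, without replicate 4 and with DESeq2. Per 100 H19 UMIs, Prl3d1 had 41.0, 63.7 and 53.9 UMIs in region 4. With region 4 and the conceptus as 1 class, 12 members were called higher against decidua, beside 14.0% of all genes, and 0 lower, beside 7.64%. With edgeR, 4 members were lower there at an unadjusted p under 0.05, and DESeq2 called 0 lower. With 1 sum per class and library, Cd81 and Grb10 were called lower as well. This class joins regions of unlike markers, so its counts are given as values only.

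Within the conceptus, a finer clustering separated a region led by the embryo and yolk sac markers from a trophoblast region. The embryo and yolk sac region held 24 spots in replicates 1 and 2 and 27 in replicate 4, and none in replicate 3, with 113836 and 715426 UMIs. The conceptus trophoblast region held 44, 41 and 52 spots. Embryo markers summed to 3215 and 3083 CPM in the embryo and yolk sac region, against 448, 441 and 537 CPM in the trophoblast region, and the trophoblast list to 2960 and 2038 CPM against 7888, 10063 and 8158 CPM. The decidua list summed to 24281 and 9351 CPM in the first, against 65068, 12932 and 20449 CPM in the second.

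Of 25 members tested, 8 rose in the embryo and yolk sac region against the conceptus trophoblast region, beside 7.81% of all 6491 genes, and 3 fell, beside 13.1%. The members' median was 0.67 and that of all genes tested -0.15. Leaving out replicate 4 leaves only replicates 1 and 2 for the embryo, assumed to vary like the other regions, and then 3 members in all were called. Meg3 and Grb10 kept their calls, and Snrpn, Peg3, Mest, Cdkn1c, Sfmbt2 and Plagl1 did not. Most of Nnat, Rian and Mirg lost theirs too. With conceptus spots chosen by markers per spot, Snrpn at 0.06, Peg3 at 0.41 and Nnat at 2.00 were not called. Embryo and yolk sac values therefore rest mainly on replicate 4.

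Meg3 measured 141 and 133 CPM in the embryo and yolk sac region, against 9.74, 16.5 and 28.7 CPM in the trophoblast region, and its log2 fold change was 2.43 ± 0.32 (adjusted p = 1.53e-07). Snrpn measured 114 and 155 CPM, against 12.2, 39.1 and 32.5 CPM, with 1.87 ± 0.29 (adjusted p = 2.46e-06). Peg3 measured 61.5 and 83.9 CPM, against 9.74, 10.4 and 37.8 CPM, with 1.32 ± 0.38 (adjusted p = 0.00659). All 3 were without overlap. Nnat measured 70.3 and 37.7 CPM, against 4.87, 0 and 3.19 CPM, Mest 141 and 129 CPM, against 56.0, 38.2 and 28.7 CPM, and Grb10 158 and 99.2 CPM, against 31.7, 24.3 and 37.3 CPM. Rian measured 52.7 and 82.5 CPM, against 4.87, 3.47 and 17.0 CPM, and Mirg 8.78 and 37.7 CPM, against 0, 6.08 and 7.98 CPM. The 8.78 CPM of Mirg rested on 1 UMI of 113836.

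Cdkn1c fell, at 87.8 and 116 CPM in the embryo and yolk sac region, against 153, 405 and 372 CPM in the trophoblast region (log2 fold change -1.99 ± 0.34, adjusted p = 1.26e-05). Sfmbt2 fell too, at 8.78 and 30.8 CPM, against 39.0, 67.7 and 54.8 CPM (-1.38 ± 0.47, adjusted p = 0.0237), and its call was also lost without replicates 1 and 2 and with DESeq2. Its 8.78 CPM rested on 1 UMI of 113836. Plagl1, the third, had 1 UMI in the embryo and yolk sac region, against 17.0, 12.2 and 10.6 CPM in the trophoblast region, and was not called with 1 sum per class and library. H19 was not called, at 1177 and 1708 CPM against 2164, 2287 and 1730 CPM, with a log2 fold change of -0.84. Phlda2 at 141 and 404 CPM against 75.5, 265 and 143 CPM and Igf2 at 52.7 and 124 CPM against 119, 122 and 99 CPM overlapped between the regions.

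**Figure D5:**
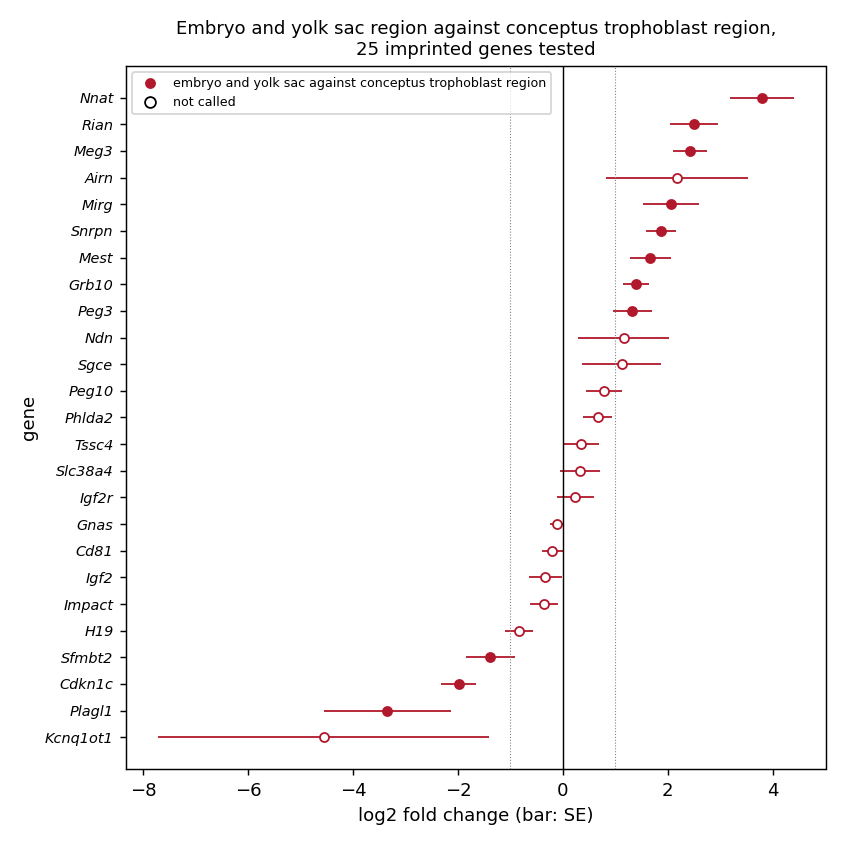
Log2 fold change of the embryo and yolk sac region against the conceptus trophoblast region for the 25 imprinted genes tested. Bars are standard errors, filled points were called and open points were not. Nnat, Rian and Meg3 lie furthest right and Cdkn1c lies at -1.99. Left of Cdkn1c lie Plagl1, which was called, and Kcnq1ot1, which was not.

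Set against the uterine classes, the embryo and yolk sac region had 14 members higher than muscle, beside 16.1% of genes, and 5 lower, beside 19.3%. It had 12 higher than stroma, beside 13.9%, and 4 lower, beside 15.3%. Against decidua 14 were higher, beside 17.2%, and 1 lower, beside 16.4%, and against the conceptus trophoblast region joined with the region led by Bco1 and Mrgprg 12 were higher, beside 13.1%, and 1 lower, beside 17.1%. Phlda2, H19, Peg10, Igf2 and Slc38a4 were among those higher in all 4, and Plagl1 was lower in all but decidua. Against the conceptus trophoblast region alone, none of those higher genes was called. There H19 lay below without overlap, at means of 1443 CPM in the embryo and yolk sac region and 2060 CPM in the trophoblast region. Gnas, at 738 and 563 CPM in the embryo and yolk sac region, was among those lower than muscle and stroma.

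Other genes around imprinting were counted from lists. Of 43 other imprinted genes, 30 were tested in the conceptus against decidua, and 4 were called higher, beside 17.9% of all genes, and 6 lower, beside 12.5%. That is 13.3% and 20% of those tested, so the higher calls did not exceed the background. Ascl2, needed for trophoblast of the mouse placenta, rose by 5.63 ± 0.39 (adjusted p = 4.3e-14), and Dio3, an enzyme that inactivates thyroid hormone, fell by 4.75 ± 0.35 on the log2 scale (adjusted p = 2.7e-13). Of 16 tested factors of imprint maintenance, 5 were higher, beside 17.9% of all genes, and 2 lower. The lower share was that of all genes, 12.5%. Uhrf1, a cofactor of DNA methylation, rose by 3.41 ± 0.21 (adjusted p = 2e-15) and Dnmt3b, a DNA methyltransferase, by 3.78 ± 0.35 (adjusted p = 5.2e-11). In the embryo and yolk sac region against the conceptus trophoblast region, Dnmt3b rose again, by 3.25 ± 0.33 (adjusted p = 4.7e-10), and 5 of 17 tested factors rose, beside 7.81% of all genes.

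Of 16 tested genes of the IGF axis, 7 were higher, beside 17.9% of all genes, and 4 lower, beside 12.5%, in the conceptus against decidua. Igf2bp1 and Igf2bp3, RNA-binding proteins of Igf2 transcripts, had log2 fold changes of 5.76 ± 0.25 and 7.01 ± 0.60 (adjusted p = 2.7e-19 and 4.4e-10), and the binding protein Igfbp7 had -3.16 ± 0.21 (adjusted p = 1.4e-14). In muscle against decidua 9 were higher, beside 23.1%, and 3 lower, beside 14.3%, with Igfbp6 at 6.69 ± 0.15 (adjusted p = 3.1e-27) and the growth factor Igf1 at 3.06 ± 0.20 (adjusted p = 2.1e-15). Both tested Y-linked genes, Eif2s3y and Ddx3y, were higher in the conceptus.

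The genes most like H19 and Peg3 were sought among the genes tested, without the members. Genes drawn for clustering, such as Pfpl and Plet1, could not appear. Over the 34 region sums, those whose log2 CPM followed H19 most closely by Pearson's r were Utf1 at 0.94, Pla2g5 and Ldoc1 at 0.93 and Hand1 and Dnm2 at 0.92. For Peg3 they were Gab1 at 0.85, Etv5, Pmm1 and Rcor2 at 0.81 and Sdc1 at 0.80. These are descriptions over sums that share 3 libraries and their depths.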

How the data were processed

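Visium libraries of mouse uterus were read from the deposited UMI counts, 1 per gene and spot. Per the file headers, the matrices come from Space Ranger 1.2.2. Cell Ranger and mm10 appear in the submitters' processing notes. For aligner settings, annotation, strand use and the filter on spots, the sources used here give nothing.

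Spots with at least 1000 UMIs were kept. Of a random set of 16142 of the 32285 genes, less the listed genes, 1500 variable genes were used for clustering with 20 components and 15 neighbours (leidenalg 0.10.2, igraph 0.11.9, scikit-learn 1.9.0) at resolution 0.6. For the embryo, resolution 1.0 was used, since no region at 0.6 was led by the embryo and yolk sac list. The fits covered the remaining 16143 genes and the listed genes, after the filter on low counts. Raw counts were summed per library and region (at least 20 spots, 34 sums of 524574 to 5277173 UMIs) and fitted with edgeR 4.0.16 in R 4.3.3 (TMM, library as a block, quasi-likelihood test, Benjamini-Hochberg adjustment). Replicate 3 had no spots in the embryo-led region. By the marker rule per spot it had 7, fewer than the 20 needed for a sum. On simulated conceptus against decidua sums, with 6013 genes tested, genes changed 1.5, 2 and 4 times passed the adjusted p in 37.7%, 64.4% and 96.6%. No doublet caller was run.

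The members and lists were chosen with earlier results of these data known. The rule for the conceptus, the region 4 and conceptus trophoblast comparisons and the use of resolution 1.0 were chosen after seeing the data, and 7 clusterings were examined with member values in view. Every member was accounted for, and values per library were given for those with at least 100 UMIs that were called in a comparison reported. Coordinates are from GENCODE M21 and RefSeq on GRCm38. Alternatives included DESeq2 1.42.0, 1 sum per class and library (added after seeing the data), other clusterings and leaving out each library.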

Additional observations from a re-analysis of the deposited data

How the results depend on the processing

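Over 172 called member values and 2360 alternative values of them, 2201 kept their call, 156 lost it and 3 reversed. The reversals were Plagl1 in the conceptus against decidua (-0.10) and Slc38a4 in stroma against decidua (-0.0053) when the remaining 16143 genes were clustered, and Cd81 in the embryo against decidua (0.12) with conceptus spots chosen by markers per spot. The causes were not tested. With no minimum fold change, 3457 genes were called in the conceptus against decidua, 4166 against muscle, 3720 against stroma, 4457 in muscle and 4038 in stroma against decidua, 3135 in trophoblast and 2820 in region 4 against decidua. With markers per spot, 12 members and 890 genes were called in the embryo against muscle and 729 genes against stroma.

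Leaving out 1 library gave, for the embryo and yolk sac, 3 to 12 members and 277 to 1330 genes against the conceptus trophoblast region, 924 to 2193 genes against decidua, 7 to 21 members and 752 to 2312 genes against muscle, 9 to 17 members and 579 to 1877 genes against stroma, and 6 to 14 members (15 without replicates 1 and 2) and 583 to 2015 genes against trophoblast, the low ends all without replicate 4. In stroma against decidua 9 to 13 members were called, the low end without replicate 3, and 9 with 1 sum per class and library. In the conceptus against muscle, the all-gene median shifted by 0.12 under DESeq2's size factors, and 7 members were then called lower. At 1000 UMIs per spot, H19 was found in 76.7% of conceptus and 0.846% of decidua spots, and unthinned in 21.1% of decidua spots. Phlda2 was found in 13.6% and 0% at 1000 UMIs, and unthinned in 67.5% and 4.14%. Regions were compared within libraries, with the library as the replicate block; without that block, no count of calls moved by over 1.5 times, and the calls of Sfmbt2 in the embryo and yolk sac against the conceptus trophoblast region (-1.39), Mest in the embryo and yolk sac against muscle (0.80) and Phlda2 in region 4 against decidua (1.22) were lost.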
